A study of Mus musculus with 4 samples.

Results

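The immunoglobulin heavy chain locus was followed through 89 array probes, which stand for 81 gene names among 28095 on the array and for 89 of its 41174 probes. The members were selected by position, as every probe that the array's annotation places on mm9 at chr12:114496985-117219055, a window of 2.72 Mb. The window itself was chosen from the readout, because probes there had been seen among the largest differences between the genotypes. The genotype values of the members, and the calls and standard errors of the fit over all probes given with them, are therefore a description and no independent evidence of a difference.

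RNA came from LSK cells, the lineage-negative bone marrow cells that carry Sca-1 and c-Kit and hold the hematopoietic stem cells and early progenitors. Meis1-KO cells came from Mx1-Cre+ Meis1 fl/fl mice and Meis1-WT cells from Meis1 fl/fl mice without Cre, all C57BL/6J and 4 to 8 weeks old. Both genotypes carry loxP sites around exon 8 of Meis1, which encodes the homeodomain, and Mx1-Cre is switched on by interferon and is not restricted to blood cells. Poly(I:C), which induces interferon, was given in 4 injections of 1.5 µg per g at intervals of a day, and cells were taken 1 week later. The sample labels give this treatment for both genotypes, whereas the design text and the array methods call the controls sham-treated, so genotype and treatment cannot be told apart here. Each of the 4 arrays held RNA of a pool of 6 mice, with 2 pools per genotype, and the arrays of pool 1 of both genotypes shared a slide, as did those of pool 2.

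A heavy chain is assembled in developing B cells from a variable (V), a diversity (D) and a joining (J) segment, and the assembled exon is spliced to a constant region. The mu constant region is used first, delta is made from the same transcript, and gamma, epsilon and alpha follow by class switching. Unrearranged segments are transcribed at low levels in progenitors, and plasma cells make secreted heavy chain mRNA in very large amounts. In the mouse the constant genes lie at one end of the locus, from alpha through the gamma genes to delta and mu, followed by J and D segments and then by V genes, with the large IGHV1 (J558) family far from the J segments.

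The members fell into 18 probes of the constant end, 4 probes between the constant genes and the first named V gene, and 67 probes of the V end. By description, 11 probes were annotated as constant, 40 as variable and 38 as neither. The array's descriptions gave an IMGT gene name for 28 probes. Description and position disagreed for 5 probes, which were annotated as J558 family members but lay at the alpha end. Adam6a and Adam6b, a pair of sperm protein genes that sit among the D and V segments, were not well above background on any array.

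Many V probes could not be assigned to a single gene. Each probe is a 60-base oligonucleotide, and 29 of the 89 shared at least 85% of an ungapped overlap of 40 or more bases with another member. They formed 37 such pairs in 5 groups, with identities of 85% to 97.8% and with partners up to 1.53 Mb apart. A value of such a probe can hold signal from several V genes. The largest group had 11 probes, 8 of which covered the end of the V segment, where codons for tyrosine or phenylalanine and cysteine close the last framework region. The motif TATTNCTGT was searched on both strands. It was found in 8 of these 11 probes, in 17 (25.4%) of the 67 V end probes and in 223 (0.542%) of all array probes. The 8 are printed here because they show how alike the probes were before the motif, in capitals, and how they differed after it:

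AY182513 (chr12:115298043-115298102, minus strand): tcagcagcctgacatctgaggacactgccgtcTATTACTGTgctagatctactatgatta
LOC640701 (chr12:116089405-116089464, minus strand): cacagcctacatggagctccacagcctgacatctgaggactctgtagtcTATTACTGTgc
X12388 (chr12:116152785-116152844, minus strand): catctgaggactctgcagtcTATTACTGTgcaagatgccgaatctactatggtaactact
AB070542 (chr12:116383686-116383745, minus strand): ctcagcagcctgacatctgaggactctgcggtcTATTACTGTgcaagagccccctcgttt
NP614311 (chr12:116597331-116597390, minus strand): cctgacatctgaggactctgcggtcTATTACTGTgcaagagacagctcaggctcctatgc
IGHV1S12 (chr12:116831324-116831383, minus strand): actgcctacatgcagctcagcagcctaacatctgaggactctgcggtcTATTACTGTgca
AB017433 (chr12:117106984-117107033, minus strand): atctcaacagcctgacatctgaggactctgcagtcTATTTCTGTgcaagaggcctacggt
NAP107273-1 (chr12:117158473-117158532, minus strand): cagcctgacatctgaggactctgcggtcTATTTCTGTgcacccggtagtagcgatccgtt

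The probes of Gm9740 and LOC675759, which stood out below, do not hold the motif TATTNCTGT. They are shown in lower case with no stretch marked. The probe of AY895789, a heavy chain mRNA clone, lies near the J segments, and its capitals mark TGGGGTCAA, the start of the J segment's conserved tryptophan and glycine codons. That motif, searched on both strands, was in 1 of 89 locus probes (1.12%) and in 15 (0.0364%) of all array probes:

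Gm9740 (chr12:116532287-116532346, minus strand): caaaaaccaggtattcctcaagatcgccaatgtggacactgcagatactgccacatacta
LOC675759 (chr12:115630019-115630078, minus strand): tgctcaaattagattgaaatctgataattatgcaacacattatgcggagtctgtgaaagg
AY895789 (chr12:114666741-114666800, minus strand): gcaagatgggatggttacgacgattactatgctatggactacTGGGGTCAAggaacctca

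Levels are log2 processed signals minus the 75th percentile of their array, and a probe was counted as detected where the scanner software called it well above background. Over the whole array, 49.22% to 57.36% of spots were detected, with the Meis1-KO pool 2 array the dimmest, and no spot was saturated. This array correlated less with the other 3 (0.891 to 0.916 across tested probes) than those did with each other (0.956 to 0.967). The 2 Meis1 probes were lower in Meis1-KO on both slides. A_52_P670612 was at 0.25 and 0.22 in Meis1-KO and at 1.02 and 1.45 in Meis1-WT, but whether it lies in the deleted exon is not given in the sources used here. Kit and Ly6a (Sca-1) were detected on all 4 arrays. Of 7 T lineage genes, 2 to 4 were detected per array, with summed levels (signal over the array's 75th percentile) of 1.75 to 2.94, and Cd3e and Cd3g were detected on none. Of 7 granulocyte and monocyte genes, 7 were detected on both pool 1 arrays and 4 and 5 on the pool 2 arrays, with summed levels of 153 and 86.4 in the Meis1-KO pools and 167 and 50.4 in the Meis1-WT pools. Their part in the heavy chain values was not tested.

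More heavy chain probes were detected in Meis1-WT than in Meis1-KO. Of the 89 probes, 78 and 79 were detected in Meis1-WT pools 1 and 2, against 61 and 59 in Meis1-KO pools 1 and 2. There were 53 probes detected on all 4 arrays and 9 on none. In bulk RNA, fewer cells of a type and less RNA per cell cannot be told apart. Probes were tested by limma where they were detected on both arrays of a genotype, which 77 of the 89 members passed. For a probe that passed through Meis1-WT alone, a lower Meis1-KO value follows in part from this filter.

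Of the 77, 28 were called lower in Meis1-KO (unadjusted p under 0.01 and more than 2-fold), where 0.600% of all tested probes were, and 42 were called lower with the slide as a block, against 1.40% of all. None was called higher by limma with or without the block, where 0.136% and 0.591% of all tested probes were, and none by the methods' t-test. No member was higher at an unadjusted p under 0.05 in any of the 3 fits. No array-wide share is given for this p or for the t-test. With p adjusted over all tested probes (Benjamini-Hochberg), 0 of the 77 were under 0.05 by limma, 17 with the block and 0 by the methods' t-test. Both Meis1-KO arrays lay below both Meis1-WT arrays for 51 of the 77 (10.9% of all tested probes), and 54 were lower on both slides (21.0% of all). Values lower by over 2-fold on both slides were seen for 36 of the 77 (1.56% of all). The median difference was -2.43 on the log2 scale, beside 0.08 over all 22006 tested probes. As the window was chosen on this contrast, nothing is read from these shares.

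The slides differed. On slide 1, the median difference of the 77 probes was -3.61, and 73 were lower in Meis1-KO. On slide 2, the median was -1.10, and 57 were lower. Over all 22006 tested probes, the medians were 0.03 and 0.13 on slides 1 and 2, and 10274 and 9691 were lower. Over the 53 probes detected on all 4 arrays, the medians were -3.56 on slide 1 and -0.47 on slide 2, where 35 were lower. With 1 array per genotype on a slide, this gap between slides has no test.

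**Figure D1:**
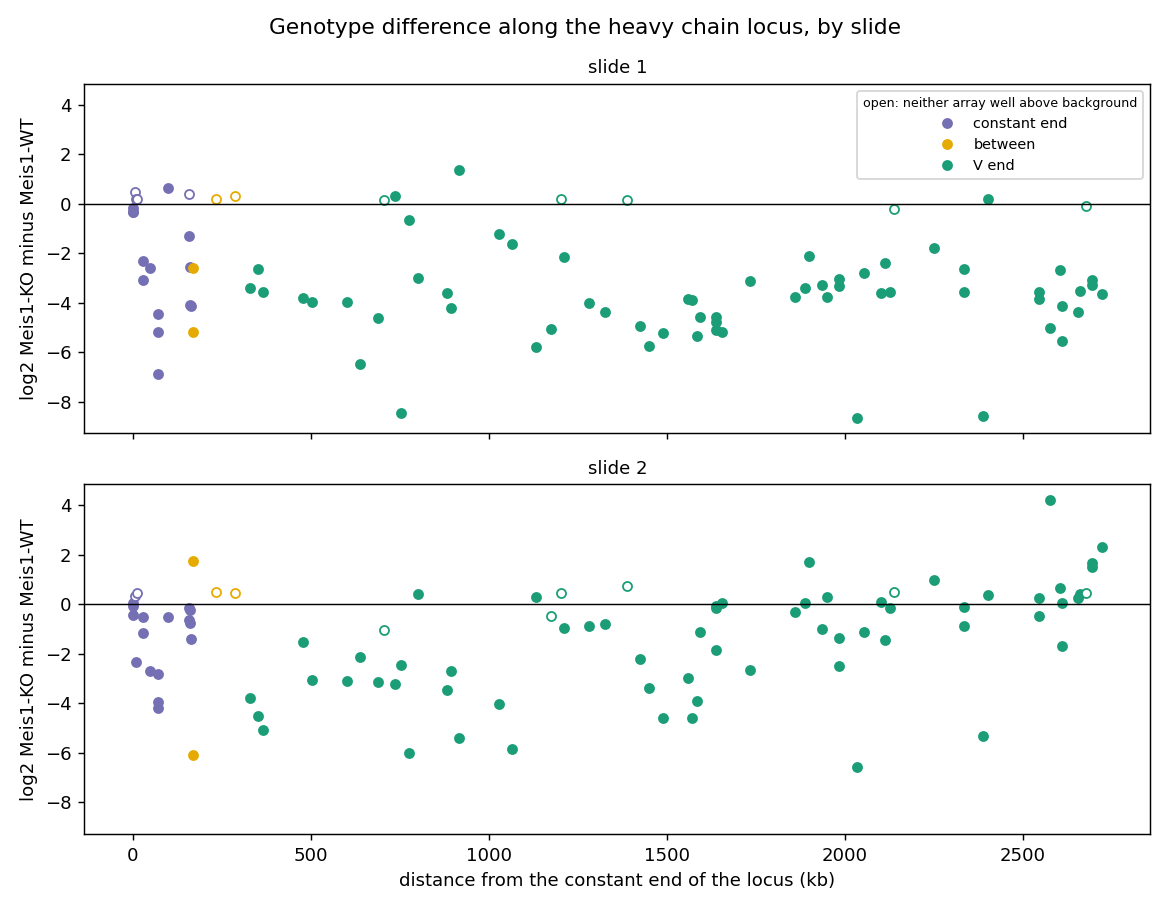
Log2 Meis1-KO minus Meis1-WT of the 89 locus probes (y axis) against distance from the constant end in kb (x axis), for slide 1 (top) and slide 2 (bottom). Open points mark probes detected on neither array of the slide. On slide 1, 73 of the 77 tested probes lie below 0, while on slide 2 the 15 tested probes of the last of 5 stretches of the V end have a median of 0.26.

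Of the constant region genes, mu was detected on all 4 arrays by each of its probes and was lower in Meis1-KO, most clearly on slide 1. The IGHM probe A_52_P571419 (chr12:114659100-114659159) was at 4.22 and 5.65 in the Meis1-KO pools and at 8.30 and 6.40 in the Meis1-WT pools. The second IGHM probe, A_51_P485421 (chr12:114659630-114659689, the mean of 10 spots), was at 1.90 and 2.37 against 6.03 and 3.76. In both, the Meis1-KO values lay below the Meis1-WT values, but the differences were -4.08 and -4.13 on slide 1 and -0.75 and -1.39 on slide 2. The mean difference of A_52_P571419 was -2.42 (SE 0.795, 2 pools per genotype). The Igh-6 probe, 2.2 kb farther toward the constant end, was at 1.24 and 2.43 against 3.78 and 2.65, so its slide 2 pools were close together. Of the fits with and without the block, the IGHM probes were called lower only with it, and the Igh-6 probe in neither. With no filter on dim probes, both IGHM probes were called too. A_51_P485421 was also called over the probes detected on all 4 arrays and with normexp background correction (-2.81), described below.

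The IGHD probe was near background, at -4.72 and -3.24 in Meis1-KO and at -3.41 and -3.1 in Meis1-WT. It was detected in both Meis1-WT pools and in neither Meis1-KO pool, with a bound of 1.38-fold higher in Meis1-WT. This direction did not hold throughout. The log2 difference was 0.21 with normexp background correction, which adds an offset to all signals, and 0.018 without Meis1-KO pool 1. This pattern of detection was seen for 10 of the 89 members and for 0.685% of all array probes. A bound here sets the mean Meis1-WT level against the lowest detected signal of each Meis1-KO array, or the probe's own signal where that was higher. Undetected probes can lie above that lowest signal, so a bound is no strict lower limit.

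The gamma genes, which are used after class switching, did not behave alike. Both IGHG1 probes were detected in Meis1-WT alone. A_51_P461067 was at -1.14 and -0.90 in Meis1-WT, with a bound of 6.54-fold above its Meis1-KO level. A_52_P1054013 was at -1.92 and -1.25, with a bound of 4.42-fold. With normexp, their log2 differences were -0.73 and -0.51 and neither was called. The IGHG2B probe was at -1.93 and -2.37 in Meis1-KO and at 0.67 and 0.34 in Meis1-WT, and its differences on the 2 slides, -2.60 and -2.71, were nearly equal (mean -2.65, SE 0.446). The mean was -1.25 with normexp, and the probe was not called without Meis1-WT pool 1 or by the methods' t-test. The IGHG2C probes had differences of -2.31 and -3.1 on slide 1 and of -0.50 and -1.15 on slide 2, the last with the Meis1-KO pool 2 value not well above background. With normexp their mean differences were -0.31 and -0.56. The IGHG3 probe was at -0.21 and -1.24 in Meis1-KO and at -0.84 and -0.71 in Meis1-WT, so that the genotypes overlapped and the slides had opposite signs. X87228, a heavy chain mRNA placed beside IGHG1, was at 1.00 and 0.64 in Meis1-WT, at -2.18 in Meis1-KO pool 2 and undetected in Meis1-KO pool 1. ENSMUST00000100999, a putative Ig-region protein between delta and mu, was detected in Meis1-WT pool 2 alone.

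At the alpha end the differences were small, as for IGHG3. Of the 5 probes there that the array annotates as J558, 3 were tested, with differences between -0.35 and -0.16 on slide 1 and between -0.42 and 0.07 on slide 2. The probe at the very edge of the window, A_51_P509679, was at 2.89 and 1.45 in Meis1-KO and at 3.24 and 1.52 in Meis1-WT. Its pool 1 arrays were alike and higher than its pool 2 arrays, in both genotypes. The probe at this end with a constant region annotation (A_51_P270661) was not detected on any array. Which gene the 5 J558-annotated probes measure was not settled, so these values do not show that alpha was absent.

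**Figure D2:**
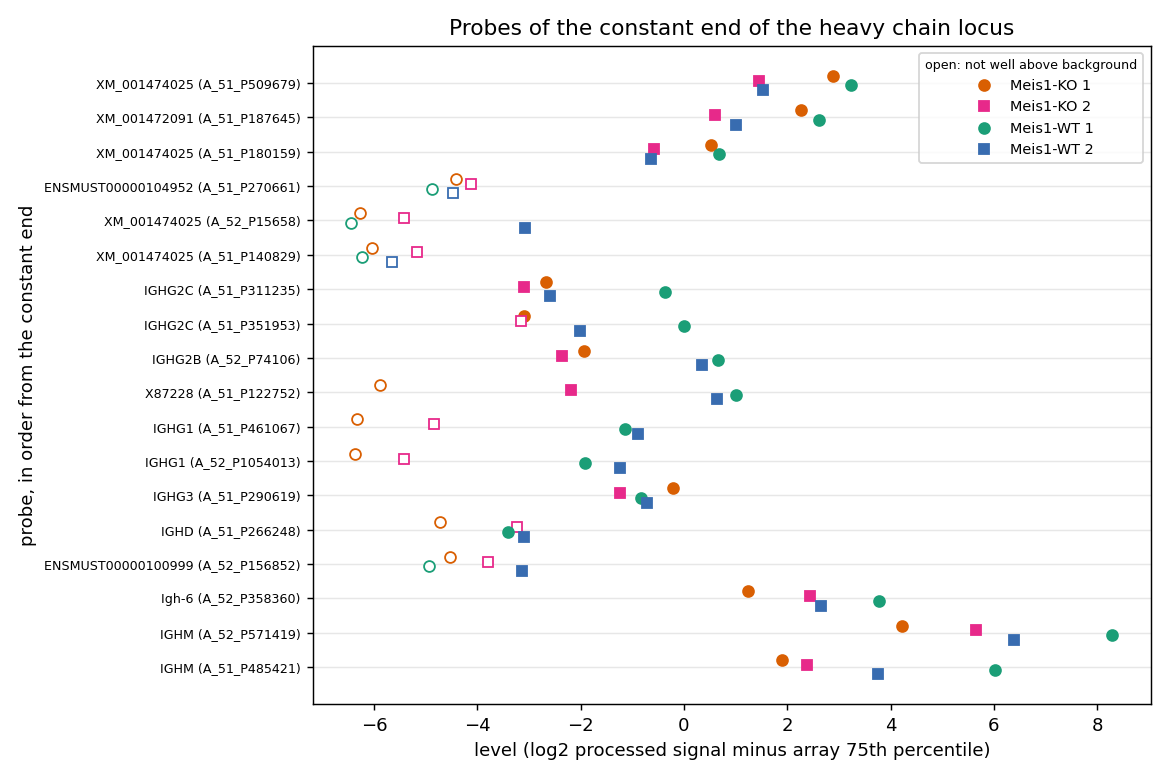
Levels (x axis, log2 relative to the array's 75th percentile) of the 18 constant end probes on the 4 arrays, in order along the locus (y axis). Open symbols mark probes not well above background. The 2 Meis1-WT arrays lie to the right of both Meis1-KO arrays for IGHM, IGHG1 and IGHG2B, and the 3 tested alpha end probes at the top pair by pool instead.

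Between mu and the first named V gene, both tested probes were annotated as antibody heavy chain mRNAs. AY895789, whose J segment letters are printed above, was at 6.24 in Meis1-WT pool 1 and at 0.82 in Meis1-WT pool 2, with 1.04 and 2.58 in the Meis1-KO pools. Its high value was thus confined, among these 4 arrays, to Meis1-WT pool 1. AB056117, whose listed coordinates span 273 kb from the J segments into the V genes, was at 2.14 and 2.79 in Meis1-WT and at -0.48 in Meis1-KO pool 1, and was undetected in Meis1-KO pool 2. It was called lower in both fits.

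In the V end, 61 of 67 probes were tested, with median differences of -3.67 on slide 1 and -1.12 on slide 2, and 23 were called lower (34 with the block). Of the 9 V probes detected on all arrays whose smaller slide difference was largest, 5 lay in the first 2 stretches of 500 kb. IGHV2-2, the V gene nearest to them among the named ones, was at -2.42 and -2.32 in Meis1-KO and at 1.02 and 1.45 in Meis1-WT (mean difference -3.60, SE 0.436). IGHV5-17 was at 0.70 and -0.73 against 4.66 and 2.35, and LOC630837, which shares sequence with it, was at 0.26 and -1.39 against 4.24 and 1.67. IGHV7-1 was at -3.0 and -2.02 against 3.47 and 0.09, and LOC100045791 at 0.56 and -2.18 against 4.19 and 1.28. In these 5 probes, every Meis1-KO value lay below every Meis1-WT value. With normexp, their mean differences, in this order, were -1.94, -3.05, -2.83, -2.43 and -2.66, and IGHV7-1 was no longer called.

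Farther out, Gm9740 had the largest difference of the members detected on all arrays. It was at -1.16 and -2.19 in Meis1-KO and at 7.48 and 4.40 in Meis1-WT, a difference of -8.64 on slide 1 and -6.59 on slide 2 (mean -7.62, SE 1.02). LOC100046275 was undetected in both Meis1-KO pools and at 2.44 and 0.13 in Meis1-WT, with a bound of 32.3-fold. Its log2 difference was -2.31 and not called with normexp, however. IGHV1-47 was at -2.64 and -2.60 against 0.49 and 0.06, IGHV1-56 at -2.47 and -2.06 against 0.59 and 0.44, and LOC100048770 (A_52_P532769) at -3.78 and -1.12 against 1.16 and 1.08. IGHV1-47 and IGHV1-56 had pools of a genotype that nearly coincided. The mean differences of IGHV1-47, IGHV1-56 and A_52_P532769 were -2.89, -2.78 and -3.57, and -1.15, -1.41 and -1.87 with normexp. Of the other V end probes detected in Meis1-WT alone, 4 lay in the third 500 kb of the V end (LOC634206, NAP113249-1, LOC634100 and NAP113251-1), with bounds of 7.89-fold to 17.5-fold. LOC634206 and LOC634100 share sequence with other members. The last 2, NAP056816-1 and ENSMUST00000109711, had bounds of 2.23-fold and 1.71-fold. With normexp, LOC634206 and NAP113249-1 were still called, at -1.47 and -1.01, and LOC634100, NAP113251-1 and NAP056816-1 were not, at -0.93, -0.70 and -0.23. ENSMUST00000109711 turned to 0.077.

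A single tested member was higher in Meis1-KO on both slides. NAP070876-1, a probe on the plus strand while the V genes lie on the minus strand, was at 3.32 and 3.50 in Meis1-KO and at 3.15 and 3.12 in Meis1-WT. These values lay close together, and it was not called. Among the V genes nearest to the constant end, M19902 was at -1.32 in Meis1-KO pool 1, undetected in Meis1-KO pool 2, and at 2.23 and 0.59 in Meis1-WT. LOC630296 was at -0.53 and -0.34 in Meis1-KO and at 3.27 and 1.19 in Meis1-WT.

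On slide 2 the difference varied with position. The V end was divided from the J side into consecutive stretches of 500 kb, the last of them shorter. Leaving out the 11 probes of the largest group that shares sequence, the median slide 2 differences of the tested probes were -3.13, -3.46, -2.66, -1.05 and 0.37. The counts of lower probes were 11 of 11, 6 of 7, 11 of 11, 7 of 10 and 3 of 11. Leaving out every probe that shares sequence with another member, a choice made after the values were seen, the medians were -3.17, -3.08, -2.66, -1.10 and -0.87, with 8 of 8, 5 of 6, 5 of 5, 7 of 9 and 3 of 5 lower. Over the probes detected on all 4 arrays, the medians without the 11 were -3.07, -3.75, -0.79, -1.05 and 0.64, and the last stretch without any shared sequence was at 0.25 (3 probes). The sign of the last stretch and the value of the third thus depended on which probes were kept. On slide 1, without the 11 probes, the medians were -3.80, -2.16, -4.79, -3.17 and -3.58, with no such order. The array names bear on the same probes. For the 7 tested probes named for V families other than IGHV1, the slide 1 and slide 2 medians were -3.43 and -3.20, and for the 10 named for IGHV1 they were -3.35 and -0.60. All 10 lay farther from the J segments than the 7, so family and position cannot be told apart.

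A group of 7 V probes that share sequence, IGHV1-11 among them, had median differences of -4.39 on slide 1 and 1.52 on slide 2, where 2 of the 7 were lower. Of these, 4 are given here, picked after their values were seen. IGHV1-11 at the far edge of the window was at -0.85 and 3.58 in Meis1-KO and at 2.82 and 1.25 in Meis1-WT. The 2 LOC675659 probes were at 0.19 and 3.62 (A_52_P686392) and at 0.16 and 3.90 (A_52_P151887) in Meis1-KO, against 3.26 and 2.10 and against 3.43 and 2.23 in Meis1-WT. IGHV1S33 was undetected in Meis1-KO pool 1 but at 3.04 in Meis1-KO pool 2, against 0.97 and -1.16 in Meis1-WT. In these 4, Meis1-KO pool 2 was the highest of the arrays and Meis1-KO pool 1 the lowest. The other three, LOC677445, LOC634338 and IGHV1S45, did not share that order, with their highest value in Meis1-WT. The bases that each of 3 probes shares with the IGHV1-11 probe are in capitals, and the IGHV1-11 probe itself is in lower case:

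IGHV1-11 (chr12:117218996-117219055, minus strand): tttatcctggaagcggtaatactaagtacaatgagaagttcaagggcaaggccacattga
IGHV1S33 (chr12:117072253-117072312, minus strand): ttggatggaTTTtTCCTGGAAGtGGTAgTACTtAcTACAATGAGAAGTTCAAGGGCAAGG
LOC675659 (chr12:117190820-117190879, minus strand): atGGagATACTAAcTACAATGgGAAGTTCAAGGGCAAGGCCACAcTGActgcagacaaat
LOC675659 (chr12:117190823-117190882, minus strand): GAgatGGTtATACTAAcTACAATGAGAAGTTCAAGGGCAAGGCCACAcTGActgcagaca

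The 11 probes of the largest group that shares sequence, 8 of them with the V segment end printed above, had similar profiles across the arrays. Their medians were 0.98 and 3.24 in Meis1-KO pools 1 and 2 and 4.52 and 3.39 in Meis1-WT pools 1 and 2. On slide 1 all 11 were lower in Meis1-KO, by 3.0 to 5.18. On slide 2 they ranged from -1.12 to 0.42, and 5 were lower. None was called lower without the block and 2 were with it. They share sequence, so they are not 11 separate measurements.

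Pools of the same genotype differed more in the heavy chain probes than in the median probe of the array. The absolute gap between the Meis1-WT pools had a median of 1.30 on the log2 scale in the 77 tested members and of 0.37 over all tested probes. The corresponding gaps between the Meis1-KO pools were 1.63 and 0.71. Such gaps were not particular to the heavy chain, as the median of Meis1-KO pool 1 minus pool 2 was -2.31 for kappa probes, -2.72 for lambda probes and 2.28 for the granulocyte and monocyte genes, against -1.16 for the members. Gaps of over 4-fold were found for 20 (26.0%) of the members between the Meis1-WT pools, against 1.42% of all tested probes, and for 34 (44.2%) between the Meis1-KO pools, against 8.36%. Meis1-WT pool 1 held the highest value of the 4 arrays for 56 of the 77, and Meis1-KO pool 1 the lowest for 53. Of all 22006 tested probes, this was so for 3904 and 4512. Meis1-WT pool 1 lay above pool 2 for 64 members (10474 of all 22006), and Meis1-KO pool 2 above pool 1 for 55 (12393 of all). Single probes could differ widely between pools. LOC675759 was at 6.92 in Meis1-WT pool 1 and between 0.07 and 1.14 in the other three. LOC630348 was at 3.04 in Meis1-WT pool 2 and between -2.40 and -1.06 in the others, and it was higher in Meis1-KO than in Meis1-WT on slide 1. ENSMUST00000109712 was undetected in Meis1-KO pool 2, and between 0.21 and 0.87 in the other three. These probes, with AY895789, IGHV1S33 and IGHV1-11, had the widest gaps of a genotype and were picked after their values were seen.

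**Figure D3:**
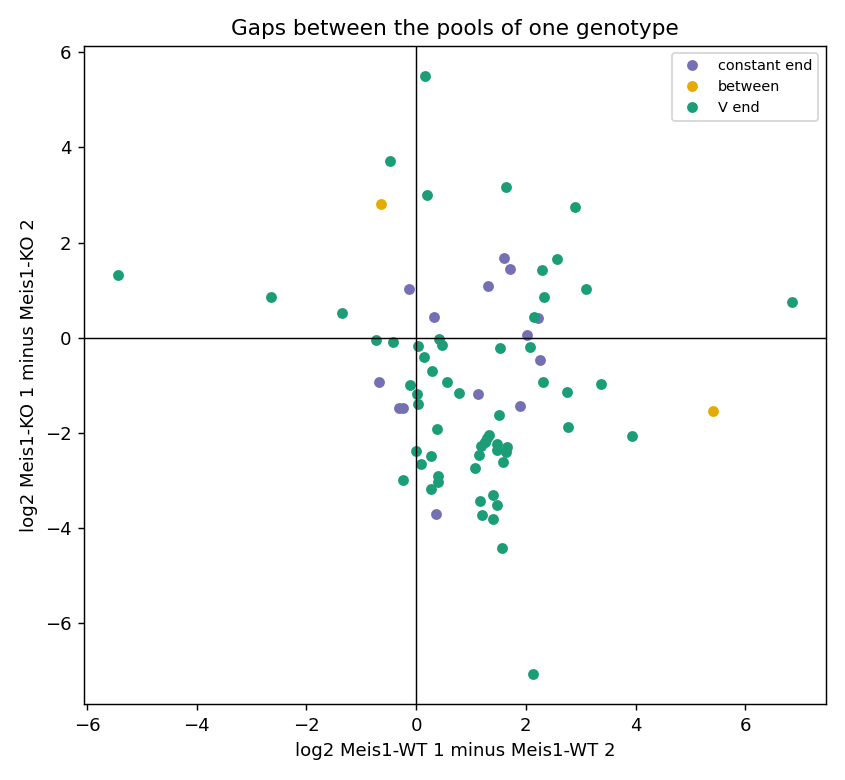
Gap between the 2 Meis1-WT pools (x axis, log2) and between the 2 Meis1-KO pools (y axis, log2) for the 77 tested locus probes, coloured by their place in the locus. Most points lie to the right of 0 (64 of 77) and below 0 (55 of 77), and single V probes reach gaps of over 4 on either axis.

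**Figure D4:**
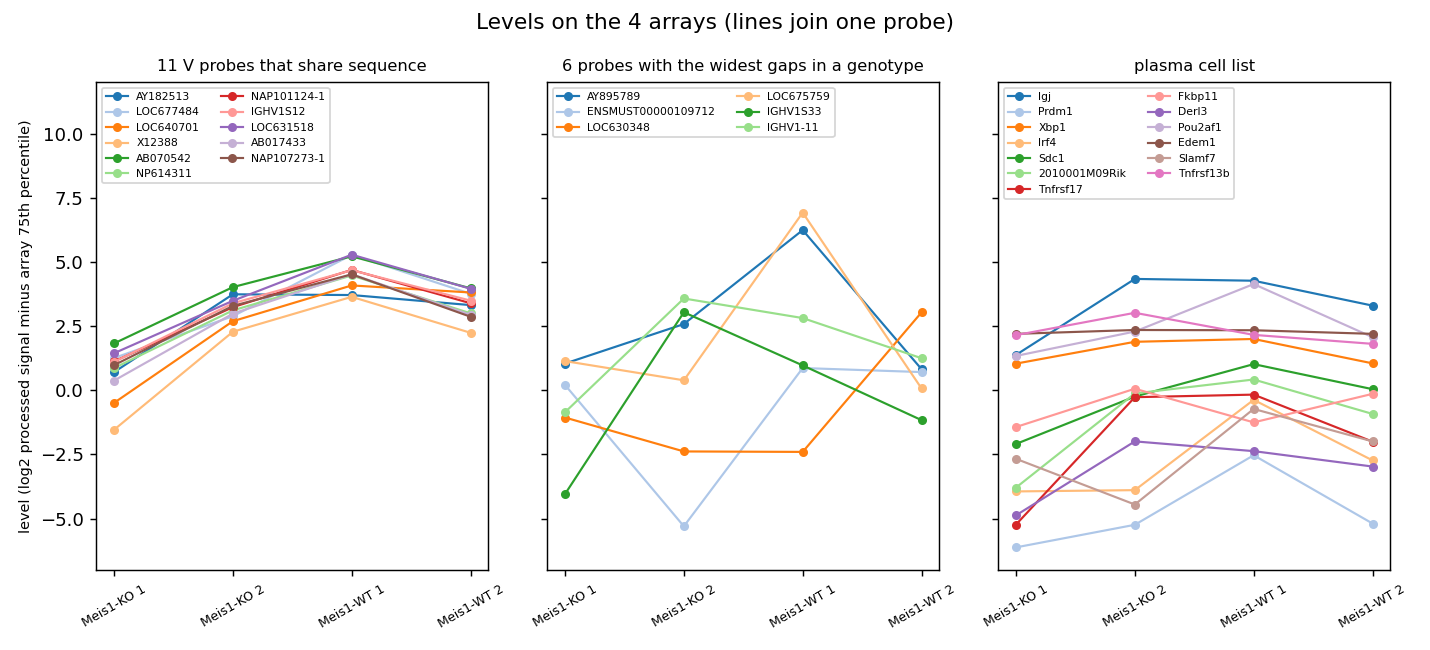
Levels on the 4 arrays (y axis, log2 relative to the array's 75th percentile; the arrays on the x axis) for the 11 V probes that share sequence (left), the 6 locus probes with the widest gaps between pools of a genotype (middle) and the plasma cell genes (right). In the left panel Meis1-KO pool 1 is lowest for every probe, the middle panel shows probes that differ between pools of a genotype, and Igj in the right panel is also lowest in Meis1-KO pool 1.

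The window's edges were checked against the probes around it. The member at the V edge is IGHV1-11, and the nearest probes outside, 19.2 and 19.4 kb away, are both LOC435333, annotated as similar to a monoclonal antibody heavy chain. A_51_P103364 was at 0.62 and 3.12 in Meis1-KO and at 4.23 and 3.26 in Meis1-WT, and A_51_P230716 at -1.46 and -0.64 against 1.57 and 0.45. Both resembled the members in their letters, as did 2 probes with no listed position (L22886 and AF210281), and all 4 were lower by 3.03 to 3.61 on slide 1. On slide 2 the LOC435333 probes differed by -0.14 and -1.09, AF210281 by -0.11 and L22886 by 0.20. At the other edge the nearest outside probe, Tmem121, lay 69.3 kb away. Of the 53 probes within 1 Mb of the window, 39 were tested, with median differences of 0.01 on slide 1 and -0.18 on slide 2. None of the 39 was called in either direction by limma, and with the block 1 was called lower (LOC435333) and 1 higher (AK040030).

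Other genes of the antibody pathway were taken from lists, 1 probe per gene. Of the V(D)J recombination genes, 12 of 14 were tested, and none was called by limma, with the block or by the methods' t-test. At an unadjusted p under 0.05 these fits gave 0, 1 and 1 of them. Rag1, which cuts the segments, was at -2.49 and -2.90 in Meis1-KO and at -1.29 and -2.52 in Meis1-WT, and Rag2 was not detected on any array. Dntt, which adds bases at the junctions, was at 5.40 and 4.62 against 6.56 and 5.82. Of the class switch and hypermutation genes, 9 of 10 were tested and none was called or had an unadjusted p under 0.05 in these fits. The same held for the 4 tested of 7 receptor partner genes. Of 17 enhancer and promoter factors, 13 were tested. None was called by limma or by the methods' t-test, with 1 at an unadjusted p under 0.05 in each, and Irf4 was called lower with the block, while Pax5 and Ebf1 were detected on no array and on 1 array.

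Light chain and plasma cell probes also differed by slide. Of all 22006 tested probes, 10274 were lower on slide 1 and 9691 on slide 2. The 9 lambda probes had medians of -0.38 and 1.95 in the Meis1-KO pools and of 2.87 and 1.36 in the Meis1-WT pools, all 9 lower on slide 1 and 2 lower on slide 2. Of 41 tested kappa probes, 39 were lower on slide 1 and 16 on slide 2. Of the 15 plasma cell genes listed, 13 were on the array and 12 were tested, of which 12 were lower on slide 1 and 3 on slide 2. None was called by limma or by the methods' t-test (2 and 0 had an unadjusted p under 0.05), and 2 were called lower with the block. Their summed level, as signal over the array's 75th percentile, was 17.2 and 46.2 in the Meis1-KO pools and 56.9 and 27.5 in the Meis1-WT pools. Igj, the J chain that joins IgM and IgA subunits, was at 1.38 and 4.34 against 4.27 and 3.30. Tnfrsf17, a receptor of plasma cells, was undetected in Meis1-KO pool 1 alone. The 3 genes lower on slide 2 differed from these. On slides 1 and 2, Irf4 had differences of -3.57 and -1.16, Sdc1 of -3.11 and -0.29, and Slamf7 of -1.95 and -2.46.

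Of the 20 B lineage genes, 8 were tested, of which 7 were lower on slide 1 (median -0.61) and 4 on slide 2 (median -0.06). None was called or had an unadjusted p under 0.05 by limma, with the block or by the methods' t-test. The summed level of the list was 67.5 and 152 in the Meis1-KO pools and 71.7 and 50.2 in the Meis1-WT pools, and it followed Cd24a, a surface protein not limited to B cells, at 5.71 and 7.13 against 5.60 and 5.33. Of the 20, Pax5, Blk, Cd22, Cr2, Rag2 and Igll1 were detected on no array. Vpreb1, a surrogate light chain gene of early B cells, was at 3.35 and 2.75 against 3.97 and 2.57. The part of plasma cell RNA, of the treatment of the controls and of the makeup of the pools in the heavy chain values was not tested.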

How the data were processed

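RNA (10 ng per pool) was amplified, labelled with Cy3 and hybridized to 1-colour arrays of 60-base probes. The authors deposited, per the file headers, spot intensities from Feature Extraction 9.5.3.1 (the submitters' processing notes name 9.1), background-subtracted and detrended within each array but not scaled between arrays. The whole-series table holds the same intensity values to within 1% and was used as an alternative. Positions are those of the array's annotation on mm9. Of the member accessions, 2 matched RefSeq, so names are the array's own.

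After removal of control spots and flagged outliers, repeated spots were averaged and the 75th percentile of log2 signals was subtracted per array. Testing required detection (well above background) on both arrays of either genotype. Genotypes were compared across 22006 probes with limma 3.58.1 (R 4.3.3), genotype as the only term. Called means over 2-fold with p under 0.01, unadjusted, as in the study's criteria. The fit was tested on simulated data. Tables were made with Python 3.11.15 and pandas 2.3.3. Only 2 arrays per genotype limit the precision.

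Arrays numbered alike sat on one slide, a batch shared by the genotypes, and arrays with the same number deviated together (correlation 0.266), so fits with the slide as a block (paired by slide) are given beside the counts they move. Mice of a pool share an array, so p-values reflect the spread between pools.

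Named probes were those annotated as constant, up to 10 detected on all arrays by the smaller of the 2 slide differences of the same sign, up to 10 detected in Meis1-WT alone by their bound, up to 5 higher in Meis1-KO on both slides, and up to 5 other annotated probes in order of position. That order, the 6 probes with the widest gaps between pools, and the far V set were chosen after the values were seen. The members, the window and the gene lists were chosen with earlier results of these data known. Alternatives were median and quantile scaling, normexp with an offset of 50, the authors' table, no filter, detection on all 4 arrays, retention of flagged outliers, a slide block, the methods' t-test, and each array left out.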

Additional observations from a re-analysis of the deposited data

How the results depend on the processing

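The count of heavy chain probes called lower, 28, was 42 with the replicate block, 18 with normexp background correction, 15 of the probes detected on all 4 arrays and 5 by the methods' t-test, and between 22 and 37 under the other scalings and filters and the authors' table. Of all tested probes, 0.600% were called lower in the main fit and 1.40% with the block. No such share is given for the other settings, so their counts cannot be set against the array. With an array left out, the count called lower ranged from 19 to 50, and it was 50 without Meis1-KO pool 2. In each of these fits, the remaining array of the reduced genotype borrows the spread of the other group. Nothing is therefore read from these counts. The count lower on both slides, 54, fell to 32 of the probes detected on all 4 arrays and was otherwise 47 to 59. No alternative called a locus probe higher. The median difference kept its sign throughout, from -3.04 to -1.70 with an array left out and at -1.47 with normexp. Of single probes, IGHD went to 0.21, ENSMUST00000109711 to 0.077 and IGHV1S33 to 0.48 with normexp, under which 8 of the named probes lost the call. The last V stretch went from 0.37 to -0.87 on slide 2 without any probe that shares sequence, an alternative added after the values were seen. Leaving out arrays, IGHG3 ranged from -0.46 to 0.57, IGHD from -1.46 to 0.018, AY895789 from -4.43 to 0.99, LOC675759 from -6.16 to 0.69, LOC630348 from -4.76 to 0.68, IGHV1S33 from -3.94 to 3.14 and IGHV1-11 from -2.89 to 1.55. Among the alternatives of the named probes, 374 values kept direction and call, 37 lost the call, 29 gained it and 13 turned. Why was not tested. Probes near background have only bounds, and 2 pools per genotype set the precision.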
